A study of Homo sapiens with 40 samples.

Results

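H3K9me3 ChIP-seq of A549 cells was compared between a control and cells with a disrupted SETDB1 gene (KO). The regions described are all 156925 H3K9me3 peaks on chromosomes 1 to 22 and X, of 614484 peaks listed there for the 5 ChIP targets of the series. Of these, 102976 come from the control list and 53949 from the KO list, and no peak of either list lay elsewhere. A control peak that a KO peak overlapped by at least 1 bp was called kept, and a control peak with no such overlap was called lost. A KO peak with no control peak under it was called new.

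A549 is an established line from a human lung adenocarcinoma and carries a K-RAS mutation. SETDB1 was disrupted with CRISPR/Cas9, with the guides carried on the PX458 plasmid. What the control cells received, and whether the KO line is 1 clone or a pool, is not given in the sources used here. The 40 samples also hold RNA-seq (3 libraries per genotype), Hi-C (2 per genotype) and ChIP-seq of H3K27me3, H3K27ac, H3K4me3 and CTCF. Each ChIP target had 2 libraries per genotype and 1 peak list per genotype.

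SETDB1 is an enzyme that trimethylates lysine 9 of histone H3, and H3K9me3 marks chromatin that is kept silent. SETDB1 is brought to DNA by KAP1 (TRIM28), which binds KRAB zinc finger proteins, and it is best known for silencing transposable elements and clusters of zinc finger genes. Other enzymes, SUV39H1 and SUV39H2, place the same mark on constitutive heterochromatin, where HP1 proteins bind it. Chromatin also separates in the nucleus into an open, gene-rich A compartment and a compact, gene-poor B compartment, which Hi-C reads as a score with 2 signs.

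SETDB1 transcript levels were examined first, as CPM, which scales each count to the library total. The control libraries held 36.4, 39.7 and 38.4 CPM, and the KO libraries held 23.7, 21.6 and 20.98 CPM. The genotypes did not overlap, and the KO mean was 57.9% of the control mean (22.1 ± 1.40 against 38.2 ± 1.65 CPM, SD, n = 3 per genotype). Transcript remained, and these counts do not measure the protein. The keratins of simple epithelia, KRT8 and KRT18, were at 2246 ± 168 and 770 ± 13.8 CPM in the control libraries and at 6647 ± 279 and 2604 ± 118 CPM in the KO libraries (SD, n = 3). CDH1 and EPCAM, also epithelial markers, were lower, at 26.8 ± 0.625 and 3.97 ± 0.252 CPM in control (SD, n = 3). In KO they were at 52.8 ± 1.55 and 10.8 ± 0.594 CPM. EPCAM in control was thus near the fibroblast gene COL1A1 (3.07 CPM in control). Among 5 measured markers of blood, endothelium and fibroblasts, CD3E was at 0 in all 6 libraries and PTPRC reached at most 0.0554 CPM. COL3A1 and COL1A1 lay between 0.277 and 4.14 CPM, and CDH5, an endothelial cadherin, went from 0.286 ± 0.0847 to 4.57 ± 0.692 CPM (SD, n = 3). In such bulk samples fewer cells of a type and less RNA per cell cannot be told apart. The part of these differences in the H3K9me3 result was not tested.

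The peak lists hold positions on hg19 and no height, so the depth behind a peak is unknown. With 1 list per genotype there is no replicate error for any H3K9me3 value. Intervals in parentheses are Wilson intervals at 95% and reflect counting error alone. Lengths have no interval.

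The H3K9me3 list changed from many narrow peaks to fewer, far wider ones. The log2 ratio of KO to control was -0.93 (Poisson interval -0.95 to -0.92) for the number of peaks and 0.86 for the covered length, and the change in number turned direction with width. Peaks under 1 kb went from 16203 in control to 3994 in KO, which is 0.246 times the control number. Peaks of 1 to 2 kb went from 28217 to 8351, and those of 2 to 5 kb, the most common class in both lists, from 41213 to 16946. The class of 5 to 10 kb was the last with fewer KO peaks, with 13580 in control and 10327 in KO. From 10 kb upwards the order was the other way. Peaks of 10 to 20 kb went from 3075 to 6803, those of 20 to 50 kb from 560 to 5153, and those of 50 to 100 kb from 93 to 1699. The widest class, 100 kb or more, held 19.3 times as many peaks in KO.

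Most of the KO length lay in wide peaks. Peaks of 20 kb or more were 0.668% of control and 13.95% of KO peaks, and held 8.17% of the covered length in control and 61.5% in KO. With peaks merged across gaps of up to 5 kb these shares of length were 34.9% and 88.3%. In the control list, 19751 peaks (19.2% of the list) were needed to hold 50% of the length. In the KO list, 4622 peaks (8.57%) did so. The plot of numbers and lengths by width class shows most of the control length in peaks of 2 to 10 kb. The KO length was spread over the wide classes, with 15.4% in peaks of 10 to 20 kb, 25.6% in 20 to 50 kb, 18.6% in 50 to 100 kb and 17.3% in 100 kb or more.

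**Figure D1:**
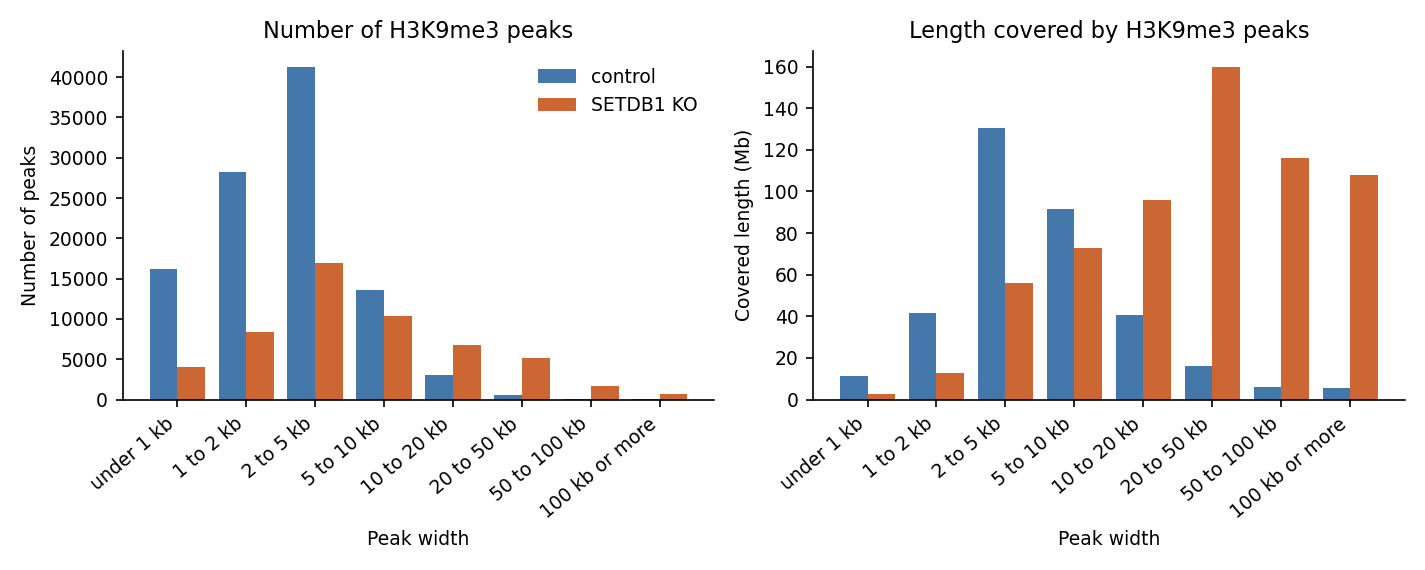
Number of H3K9me3 peaks (left) and length covered by them in Mb (right) in 8 classes of peak width, with control in blue and SETDB1 KO in orange. Control bars are taller in the 4 classes under 10 kb and KO bars are taller in the 4 classes from 10 kb upwards, in both panels.

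Of control peaks 39.97% were kept, and 43.7% of KO peaks met a control peak. These shares were 5.74% and 10.95% where the overlap had to reach 50% of both peaks. KO peaks covered 20.5% of the length of the chromosomes, and control peaks 11.3%. By length, 37.7% of the control list lay under KO peaks and 20.8% of the KO list under control peaks. The share of peaks that would meet by chance was not measured. The share of control peaks kept differed with their width, and not in 1 direction. Of control peaks under 1 kb, 26.7% (26.01 to 27.4) met a KO peak, and this share rose to 57.9% (56.2 to 59.7) for peaks of 10 to 20 kb. It was lower again in the widest classes, at 51.4% (47.3 to 55.5) for 20 to 50 kb and 31.2% (22.7 to 41.2) for 50 to 100 kb. Of the 35 control peaks of 100 kb or more, 15 met a KO peak, but only 9.37% of their length lay under KO peaks. Chromosome 19 held 26 of these 35 peaks. Outside chromosome 19, 11.5% of the length of the 9 remaining peaks lay under KO peaks.

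KO peaks behaved differently. The share that met a control peak rose through every class, from 28.3% (26.9 to 29.7) of those under 1 kb to 96.0% (94.3 to 97.2) of those of 100 kb or more. A wider peak has more room to meet another by chance, and that part was not measured. The share of their length under control peaks lay between 16.1% and 28.7% in all 8 classes, and was 28.7% in the widest. The widest KO peaks therefore touched control peaks nearly always, and most of their length was outside the control list. Control peaks covered 11.3% of the chromosomes as a whole, so most sequence lay outside that list. The share of KO length under control peaks was above 11.3% in all 8 classes. It was not adjusted for where KO peaks lay.

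Many wide KO peaks lay over rows of small control peaks. Of KO peaks, 793 lay over 6 to 10 control peaks, 269 over 11 to 20, and 88 over 21 or more. Those 88 had a median width of 252 kb. The KO peaks over the most control peaks were at chr16:7189524-7778142, which is 589 kb wide and lay over 62 control peaks, at chr12:24103326-24590301 with 48, and at chr7:53563760-53852902 with 43. Control peaks covered 67.9%, 39.0% and 57.2% of these 3 KO peaks. The reverse was rare, as 11 control peaks lay over 6 to 10 KO peaks and 1 over 21 or more. No gene annotation of hg19 was used, so the genes at these and later regions are not named.

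In 14953 cases exactly 1 control peak met exactly 1 KO peak and neither met any other. The KO peak was the wider one in 64.4% of these pairs, with a median ratio of 1.48 (quartiles 0.723 and 4.30). The control peak lay wholly inside the KO peak in 42.5% of pairs, the KO peak lay inside the control peak in 20.6%, and the 2 were staggered in 36.9%. Where the control peak lay inside, the KO peak reached a median of 2407 bp further on the left and 2390 bp further on the right. Within a pair a median of 79.8% of the added length was on the longer side. That side holds the larger part by definition, and no random placement was set beside this share.

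Neighbouring KO peaks also stood closer together. The median gap between neighbouring peaks was 9495 bp in control and 3172 bp in KO. Gaps under 5 kb made up 32.7% of control gaps and 60.6% of KO gaps. The smallest gaps were 967 bp in control and 991 bp in KO, and gaps under 1 kb made up 0.874% and 0.873% of all gaps. Gaps under 2 kb made up 14.6% and 38.9%. Whether peak calling joined intervals across about 1 kb is not given in the sources used here and was not tested. Peak numbers, widths and gaps may thus be those of joined intervals. At the other end, 32 control gaps were 1 Mb or longer and summed to 144.6 Mb. In KO, 531 gaps were that long and summed to 1069.5 Mb. Unassembled stretches of the build were not taken out of either sum. The KO list thus had both more short gaps and more very long ones.

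Joining peaks less than 10 kb apart gave 50080 groups of peaks in control and 12476 in KO. Groups of 10 or more peaks held 15.1% of control peaks and 59.3% of KO peaks. Groups spanning 1 Mb or more numbered 8 in control and 161 in KO, and the longest spanned 2.19 and 7.39 Mb. Within the groups of 1 Mb or more, peaks covered 88.7% of the span in control and 91.9% in KO.

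Kept and lost control peaks lay in separate stretches. Of the neighbours that followed a kept control peak, 84.2% (83.8 to 84.5) were kept, against 10.5% (10.3 to 10.8) of those that followed a lost one. The contrast was present at short and long range, with 88.6% and 11.9% over gaps under 5 kb and 75.3% and 8.002% over gaps of 50 kb or more. Neighbours under the same KO peak are both kept by definition, and that part was not measured. Runs of 10 or more lost peaks in a row held 78.9% of all lost peaks, and runs of 10 or more kept peaks held 72.2% of all kept peaks. KO peaks were more mixed, as 62.4% (61.8 to 63.0) of neighbours following a KO peak with a control peak also had one, against 29.2% (28.7 to 29.7) following a new peak.

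The longest runs were looked up after their values were seen. The longest run of lost peaks, 251 in a row, lay at chr2:186722509-194748654, where the KO list held 26 peaks, none over these control peaks, and KO coverage was 0.687%. A run of 219 lost peaks at chr3:90286574-96394764 held 5 KO peaks, and one of 200 at chr2:82497614-84241565 held 1, with coverage going from 40.3% to 0.137%. Unassembled stretches of the build were not taken out of these spans. The longest run of kept peaks, 728 in a row, lay at chr21:19221877-27010498, and coverage there went from 30.5% in control to 92.9% in KO. The next were 577 kept peaks at chr2:76366036-81433696 and 473 at chr9:7283420-12614395, with KO coverage of 93.3% and 93.5%. On chromosome 2 a run of kept peaks that KO peaks nearly filled thus ended close to a run where nearly all peaks were lost.

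Distances between the classes show the same separation. A lost control peak lay a median of 117 kb from the nearest KO peak (quartiles 24.8 and 345 kb) and 162 kb from the nearest kept control peak. Its nearest lost neighbour was at a median of 7.35 kb. A new KO peak lay much nearer to control peaks, at a median of 13.2 kb (quartiles 4.91 and 35.2 kb). Its nearest kept control peak was at 20.8 kb and its nearest lost control peak at 72.9 kb. Nearest neighbours within a class were at 4.04 kb for kept control peaks and 2.23 kb for new KO peaks. These medians depend on how many peaks each class holds, and no distance was adjusted for that. In the plot of cumulative distances the curve of lost peaks lies far to the right of that of new peaks.

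**Figure D2:**
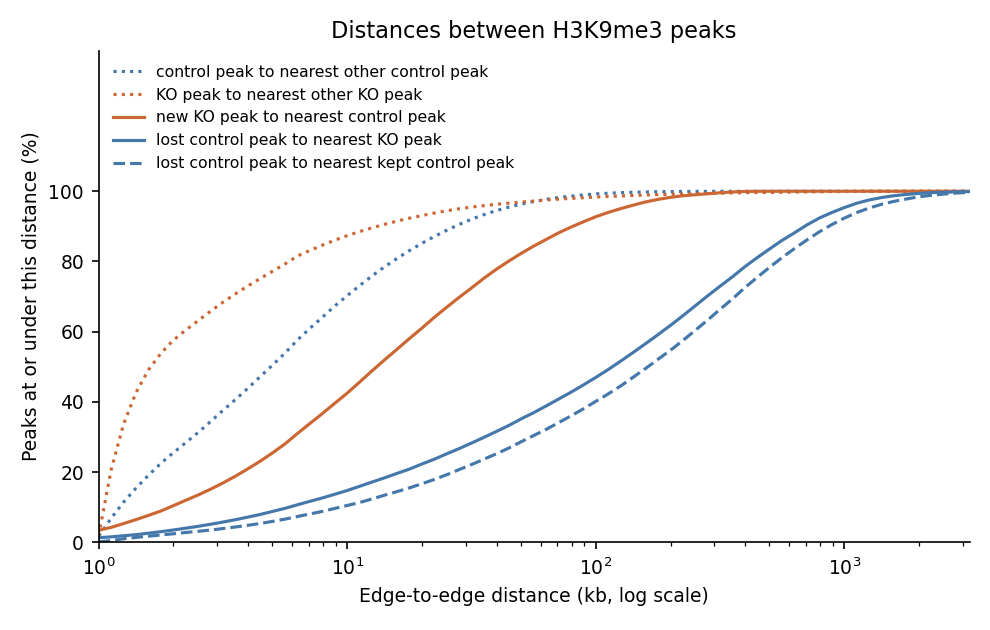
Cumulative share of peaks (vertical axis, percent) against the edge-to-edge distance to the nearest peak of the named class (horizontal axis, kb, log scale). Within 10 kb of the stated class lay 42.5% of new KO peaks (solid orange, to control peaks) and 14.8% of lost control peaks (solid blue, to KO peaks), and dotted lines give distances within each list.

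The distances differed by compartment. Bins of 100 kb with a positive control score are called A here and those with a negative score B, because control H3K27ac peaks, a mark of active promoters and enhancers, covered 6.94% of A and 0.432% of B length. Lost peaks in A lay a median of 177 kb from a KO peak, and those in B 29.7 kb. New KO peaks in A lay 6.69 kb from a control peak, and those in B 14.3 kb. Only 7863 KO peaks lay in A, against 44756 in B.

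KO coverage was a steep function of the control compartment score, and control coverage a shallow one. The 26567 bins with a control score were divided into 20 groups of nearly equal size, from the lowest score (most B) to the highest (most A). Control coverage was 26.1% in the first group, 11.1% in the sixth and 13.0% in the tenth, and was lowest in the last at 5.69%. KO coverage was 78.6% in the first group, 77.3% in the second and 71.9% in the third. It was 51.6% in the fifth, 18.8% in the eighth, 8.20% in the tenth and 0.323% in the last. KO coverage fell from each group to the next without exception.

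KO lay above control in the 8 groups with the lowest score and below it in the other 12. The order changed at a control score of about -0.135, on the B side of 0. In the ninth group, which straddles a score of 0, control peaks covered 12.7% and KO peaks 11.5%. The ratio of KO to control coverage was highest in the fourth group, at 4.30. In the last group control coverage was 17.6 times KO coverage.

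**Figure D3:**
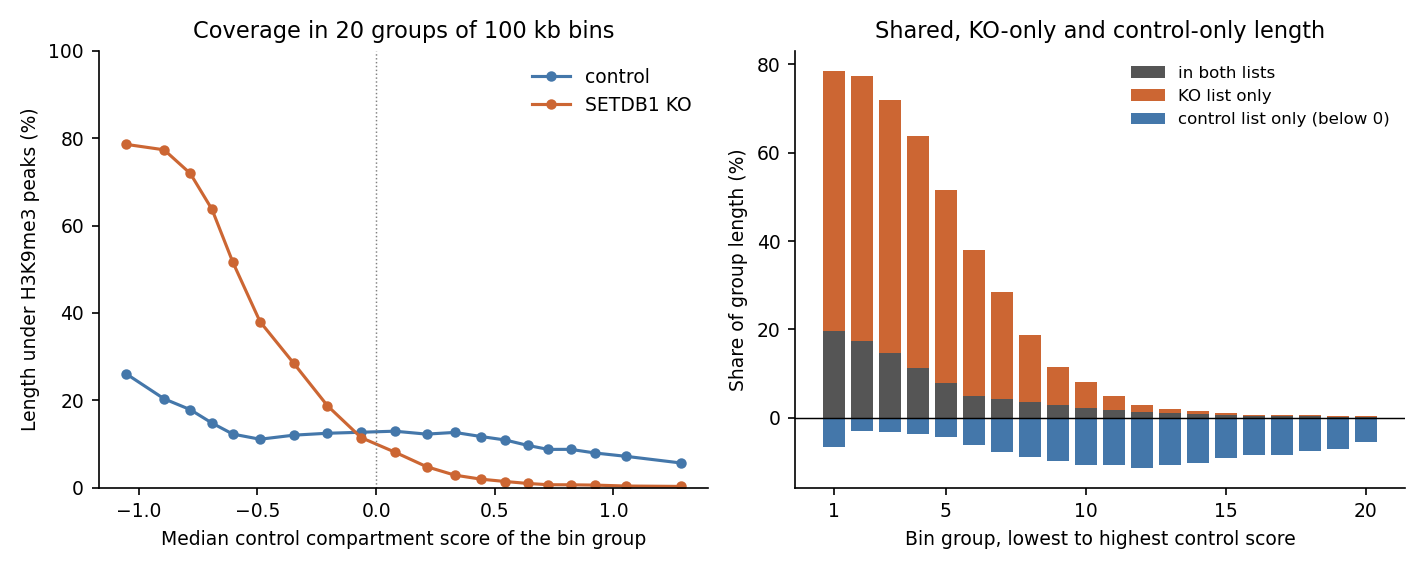
Left, share of bin length under H3K9me3 peaks (percent) against the median control compartment score of 20 groups of 100 kb bins, for control (blue) and KO (orange). Right, the same groups in order, with the share of length in both lists (grey) and only in the KO list (orange) above 0 and only in the control list (blue) below 0. KO coverage falls from 78.6% to 0.323% along the score, and control coverage stays between 5.69% and 26.1%.

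Single bins were mostly full or empty in KO at the ends of the score and of all levels between them. In the first group the median bin was 91.6% covered in KO, and 84.4% of bins (82.4 to 86.3) were at least 50% covered. In the last group 93.0% of bins held no KO peak. In the sixth group the median bin was 29.2% covered, 20.8% of bins had no KO peak and the most covered 10% of bins were over 90.6% covered. The median control bin was 18.8% covered in the first group and 3.19% in the last.

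The share of control peak length that lay under KO peaks followed the same gradient. It was 75.01% in the first group, 85.1% in the second, 44.2% in the sixth, 17.9% in the tenth and 3.11% in the last. Set against KO coverage of the same bins, this share was 0.955 times as high in the first group, 1.10 times in the second and 9.61 times in the last. In the groups where KO peaks were nearly absent, control peaks were thus covered more than the bins as a whole. Of control peaks, 89.7% (89.1 to 90.4) were kept in the first group and 3.43% (2.83 to 4.17) in the last. Widths also followed the score in KO, where the median peak went from 11034 bp in the first group to 1956 bp in the last. In control the medians were 2795 and 1913 bp.

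Chromosome 19 supplied 72 bins (5.42%) of the first group. Without that chromosome, an alternative chosen after the data were seen, first-group coverage was 22.2% for control peaks and 81.8% for KO peaks, which held 87.7% of the control length.

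Over all 26567 bins the control score and KO coverage had a Pearson r of -0.71 (Spearman rho -0.73). The score and control coverage had an r of -0.26, and control and KO coverage an r of 0.22. Within B bins (n = 11895) the score and KO coverage had an r of -0.59, and within A bins (n = 14672) of -0.22. These describe bins, which share libraries, chromosomes and neighbours and are not independent.

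Bin by bin, coverage was lower in KO in 85.0% of A bins and higher in 4.12%. In B it was higher in 67.4% and lower in 30.4%. A gain of at least 50 percentage points was found in 4983 B and 85 A bins. A loss of at least 10 points was found in 4396 A and 1591 B bins. In 756 bins coverage went from 0 to at least 50%.

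KO coverage fell sharply where the control score changed sign. At 670 such changes, with bins of 1 sign on each side for 500 kb, KO peaks covered 52.1% of the fifth B bin from the change, 34.1% of the second and 15.5% of the last B bin. They covered 4.56% of the first A bin and 1.38% of the fifth. Control coverage was 10.5% in the fifth B bin, 12.9% in the last B bin, 10.6% in the first A bin and 8.77% in the fifth. The KO profile thus dropped mainly over the last 300 kb of the B side, and the control profile was nearly flat.

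The compartment score was the replicated readout of these regions, with 2 Hi-C libraries per genotype. It was tested with limma in 26496 bins with a score in every library, with Benjamini-Hochberg adjusted p-values called at 0.05. Over all bins 21.6% had a higher and 37.3% a lower score in KO, 58.8% in either direction. The labels do not say that replicates were separate cultures, so these p-values measure the spread between libraries, which may be technical.

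Bins that gained H3K9me3 moved further towards B. Among the 5067 tested bins that gained at least 50 points, limma called a lower score in 2886 (57.0%) and a higher one in 279 (5.51%). The median score of these bins was -0.76 and -0.75 in the control libraries and -0.92 in both KO libraries. The genotypes did not overlap in these medians, and the median difference was -0.15.

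B bins that lost H3K9me3 moved the other way. Among the 1579 B bins that lost at least 10 points, limma called a higher score in 985 (62.4%) and a lower one in 306 (19.4%). Their median was -0.32 and -0.33 in control and -0.09 in both KO libraries, with a median difference of 0.27, and 638 of them (40.4%) changed sign from B to A. B bins that neither gained nor lost, 5298 in number, had a higher score in 36.8% and a lower one in 36.7% by the same test. Of these bins 17.2% changed sign to A, and their control medians, -0.45 in both libraries, were further from 0. Over all B bins 13.1% changed sign to A.

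A bins showed little of this. The 4389 A bins that lost at least 10 points had a higher score in 24.1% and a lower one in 29.8%, with a median difference of -0.01. The 10248 A bins without such a loss had a higher score in 14.1% and a lower one in 34.3%. The plot of medians by replicate shows the KO points below the control points for gained bins and above them for B bins that lost coverage.

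**Figure D4:**
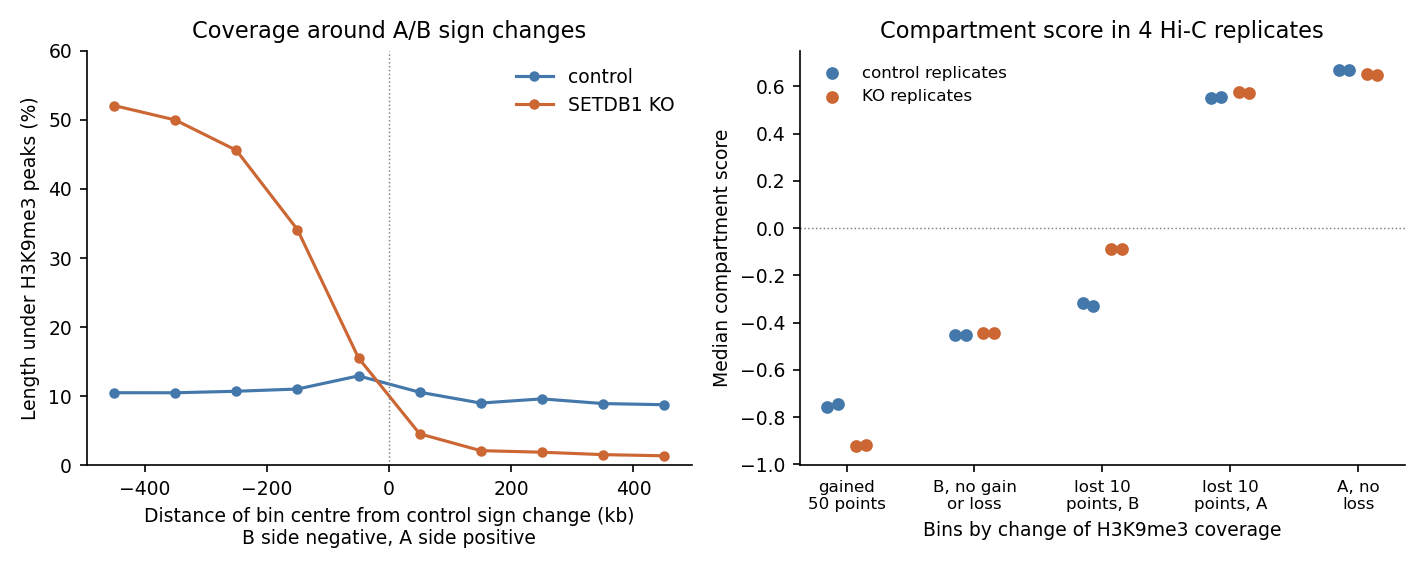
Left, share of bin length under H3K9me3 peaks (percent) in the 5 bins on each side of 670 control sign changes, in kb from the change. Right, median compartment score of each Hi-C replicate (points, 2 per genotype) for 5 groups of bins by their change in H3K9me3 coverage. In gained bins the KO points are at -0.92 and the control points at -0.76 and -0.75, and in B bins that lost 10 points the KO points are the higher ones.

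Lower coverage of A and higher coverage of B were found on nearly every chromosome. KO coverage, as a share of the bins with a score, was above control on 21 of 23 chromosomes. In A bins it was below control on 23 of 23, and in B bins above control on 22 of 23. The median KO peak was wider on 22 chromosomes, and the median KO gap shorter on 22. The number of peaks was higher in KO only on X, which went from 3463 to 4548.

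**Figure D5:**
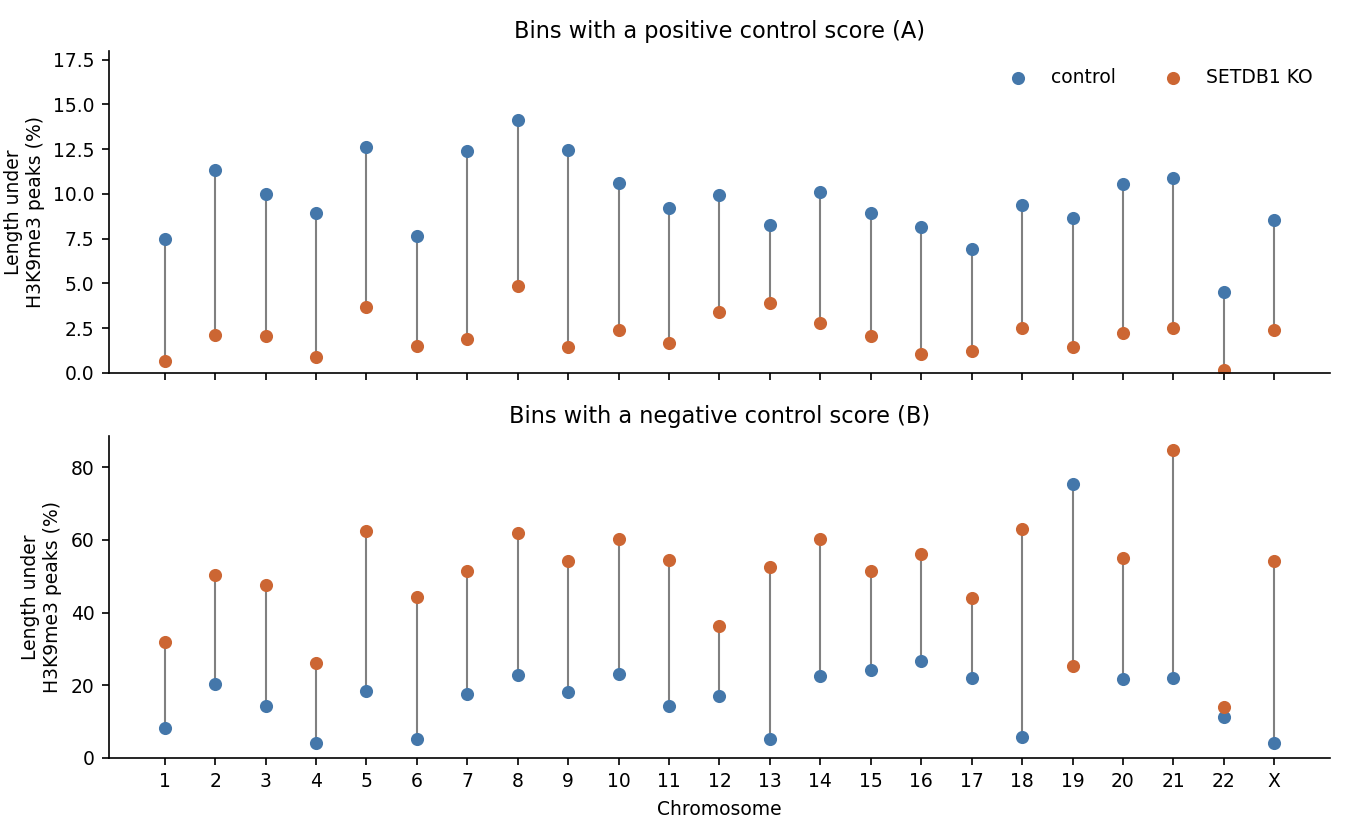
Share of bin length under H3K9me3 peaks (percent) on each chromosome, in bins with a positive control score (top) and a negative one (bottom), for control (blue) and KO (orange), with lines joining the genotypes. KO points lie below control in all 23 chromosomes of the top panel and above control in 22 of the bottom panel, where chromosome 19 goes from 75.4% to 25.3%.

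Control coverage was highest on chromosomes 19 (35.6%), 8 (18.3%) and 16 (17.0%) and lowest on X (6.29%), 6 (6.69%) and 4 (6.69%). KO coverage was highest on 21 (38.0%), 8 (32.4%) and 18 (31.9%) and lowest on 22 (4.78%), 19 (11.1%) and 4 (12.6%). The fold was highest on X (4.61), 18 (4.22) and 13 (4.01), and lowest on 19 (0.311), 22 (0.705) and 17 (1.29). Control and KO coverage had a Pearson r of 0.03 and a Spearman rho of 0.30 over the 23 chromosomes. Without chromosomes 19 and 22, the 2 with lower KO coverage, r was 0.40 (n = 21). Chromosomes of a genotype share 1 peak list and differ in gene density and length.

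The chromosomes also differed in how control coverage was split between compartments. On 4, 6, 13, 18 and X control peaks covered less of B (4.67%) than of A (8.45%), a grouping made after these values were seen. On the other chromosomes without 19 they covered 18.1% of B and 10.4% of A. In KO, pooled coverage of B was 44.9% and 51.0%, with single chromosomes between 26.1% (4) and 63.1% (18) in the first group and between 13.9% (22) and 84.7% (21) in the second. Pooled coverage of A was 1.94% and 2.21%. On the 5 chromosomes between 68.9% and 82.0% of KO peaks were new, against 26.8% (17) to 66.7% (1) on the others without 19. The grouping itself favours a high share, as it picks chromosomes with little control coverage of B, where most KO peaks lie. The share of new peaks was highest on X (82.0%, 80.8 to 83.1) and 4 (81.6%, 80.2 to 82.9). The share of control peaks kept was highest on 21 (62.6%, 60.3 to 65.0) and lowest on 4 (13.3%, 12.4 to 14.3).

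Chromosome 21 had the most complete KO coverage of B, from 21.9% in control to 84.7%. The longest run of bins gaining at least 50 points was on chromosome 13, 65 bins at chr13:53500001-60000000, where coverage went from 6.80% to 92.7% and the score from -0.96 to -1.03. The next, with scores going from -0.75 to -0.85 and from -1.02 to -0.99, were 34 bins at chrX:31000001-34400000 (5.51% to 94.0%) and 33 bins at chrX:143600001-146900000 (4.21% to 92.1%). All 3 had a negative score in both genotypes. The widest new KO peaks, with no control peak under them, were at chr3:60215462-60428220 (213 kb), chr1:72425951-72602300 (176 kb) and chr13:59629910-59793431 (164 kb). The nearest control peak was 157.5, 158.2 and 38.1 kb away, and each lay in a bin with a control score between -0.77 and -0.68.

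Chromosome 19 was the one chromosome with lower coverage of B in KO. It carries many of the genes for KRAB zinc finger proteins, which SETDB1 is known to silence. Its control list held 1963 peaks and its KO list 539, coverage of its B bins went from 75.4% to 25.3%, and 8.53% of its KO peaks were new. The 3 widest lost control peaks were on it, at chr19:37293298-37539219 (246 kb), chr19:12232108-12472172 (240.1 kb) and chr19:58421428-58658053 (237 kb). Their nearest KO peaks were 771.3, 367.9 and 300.5 kb away. Marks of active promoters were found there in KO. Control H3K4me3 peaks covered 1.52%, 1.69% and 4.59% of them, and KO H3K4me3 peaks 11.6%, 8.55% and 16.7%. H3K27ac peaks covered 0%, 0.471% and 1.69% in control and 8.79%, 3.29% and 14.9% in KO.

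The 3 widest kept control peaks were also on chromosome 19, and were kept only by the rule of 1 bp. KO peaks covered 6.26% of the one at chr19:52314494-52556209, 15.4% of the one at chr19:54042587-54276199 and 1.502% of the one at chr19:52773858-52998065. They lay within a run of 27 bins, chr19:51600001-54300000, that went from 85.7% to 8.34% coverage as its score went from -1.03 to 0.21. H3K27me3 peaks covered 10.6% of this run in control and 28.2% in KO. Longer runs of loss lay outside chromosome 19. At chr3:82800001-86000000 (32 bins) coverage went from 36.9% to 4.201% and the score from -0.55 to 0.06. At chr2:81500001-84500000 (30 bins) coverage went from 45.8% to 2.30% and the score from -0.60 to 0.07. All 3 runs of loss went from a negative to a positive score.

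H3K27me3, the silencing mark of the Polycomb complex PRC2, was lower in KO where H3K9me3 was new. Control H3K27me3 peaks covered 21.1% of the length of new KO peaks, and KO H3K27me3 peaks covered 8.11%. Most new peaks lay in B, and over all B bins the shares were also lower in KO, at 19.6% and 10.9%. Over all bins they were 13.7% and 10.4%. KO peaks that met a control peak had the same order, with 21.2% in control and 9.28% in KO. Lost control peaks went from 26.1% to 20.7% and kept ones from 31.2% to 25.7%. Pooled H3K27me3 coverage of B bins also differed between the chromosome groups above, at 11.5% in control on 4, 6, 13, 18 and X and 22.4% on the others without 19. Single chromosomes overlapped, between 6.59% (X) and 19.8% (18) in the first group and between 8.91% (21) and 41.6% (15) in the second.

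Active marks were more extensive in KO over lost control peaks, and also over kept ones. H3K4me3, a mark of promoters, covered 1.28% of the length of lost peaks in B in control and 4.004% in KO. H3K27ac covered 0.896% and 3.41%. Over all B bins these shares were 0.843% and 1.496% for H3K4me3 and 0.432% and 0.864% for H3K27ac. Lost peaks in A went from 2.21% to 3.06% for H3K4me3 and from 4.11% to 5.70% for H3K27ac, and stayed below all A bins, which went from 5.91% to 6.35% and from 6.94% to 7.30%. Over new KO peaks both marks were nearly absent in both genotypes, at 0.161% and 0.142% for H3K4me3 and 0.0475% and 0.0369% for H3K27ac. Each of these marks also has 1 list per genotype, so no test of these shares was possible.

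H3K9me3 coverage differed with the size of topologically associating domains (TADs), the contact domains of Hi-C maps. In the 1497 control TADs under 200 kb coverage went from 7.89% in control to 2.47% in KO. In the 3119 TADs of 200 to 500 kb it went from 9.38% to 5.74%. In those of 500 kb to 1 Mb it went from 12.1% to 19.7%, and in the 452 of 1 Mb or more from 17.7% to 53.2%. TADs at least 80% covered numbered 23 in control and 226 in KO, of 6118. At the same time 38.8% of TADs were under 5% covered in control and 76.2% in KO.

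The edges of wide KO peaks were seldom at TAD boundaries. Of the 1352 edges of KO peaks of 100 kb or more, 27 (2.00%, 1.38 to 2.89) lay within 20 kb of a control boundary, and the median distance was 450 kb. For KO peaks of 20 to 100 kb the share was 1.66% (1.46 to 1.88) and the median distance 367 kb. For KO peaks under 20 kb these were 5.11% (4.97 to 5.25) and 194 kb. For control peaks the share was 7.27% (7.16 to 7.38) and the median distance 163 kb. Of the KO peaks of 100 kb or more, 19 (2.81%, 1.81 to 4.35) lay across a boundary. Boundaries of large TADs are far apart, and no distance was adjusted for TAD size.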

How the data were processed

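ChIP-seq used chromatin cut with MNase from cells collected with or without fixation, per the labels' protocols. Bowtie2 2.2.3, SAMtools 1.5, Picard, MACS2, STAR 2.6.1c and the build hg19 are named in the submitters' processing notes. Peak calling settings, and how the 2 libraries of a genotype became 1 list, are not given in the sources used here. Inputs were not used here.

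The deposited peak lists hold positions only. The deposited compartment table holds a signed score per 100 kb bin for each Hi-C replicate and genotype, whose method and orientation are not given in the sources used here. The deposited RNA-seq table holds whole-number counts per gene. Library totals were 18065062 to 48364919 counts, and 0 per-sample columns went unused.

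Positions are 1-based. Overlaps, gaps and distances were computed in Python 3.11.15 with numpy 2.4.6 and pandas 2.3.3 and checked against bedtools 2.31.1. Scores were tested with limma 3.58.1 in R 4.3.3 (genotype only, Benjamini-Hochberg), and the fit was tried on simulated scores of 26496 bins. Score shifts of 0.1, in 200 or 13248 bins, were recovered in 0% of shifted bins, as were shifts of 0.2 in 200 bins. With shifts of 0.2 in 13248 bins 82.0% were recovered, and 2.85% of the calls were false. Shares have Wilson 95% intervals.

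The peaks, groups of bins and markers were chosen with earlier results of these data known. Regions were named by rule: the 3 widest lost, kept and new peaks, the 3 KO peaks over the most control peaks, the 3 longest runs of gaining or losing bins, and the 3 highest and lowest chromosomes. Alternatives were wider peaks only, merged peaks, other overlaps, autosomes only, other score columns and numbers of groups, other gain and loss limits, scaled columns, a replicate block and each Hi-C replicate left out. Control and KO replicates of the same number did not deviate together (correlation over bins -0.0018), so the number was not taken as a pairing.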

Additional observations from a re-analysis of the deposited data

How the results depend on the processing

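Of 153 values under alternatives, 111 stayed within their limits, 42 moved and 0 reversed. The limits were 1.5 times for counts of bins and otherwise the 95% interval from counting error (for lengths, that of the matching number of peaks or bins). Except where a setting joins, drops or redefines peaks or bins by construction, the cause was not tested. Merging peaks within 5 kb gave log2 ratios of -1.70 for number and 0.69 for length, shares met by the other list of 36.8% (control) and 59.1% (KO), 34.9% and 88.3% of length in peaks of 20 kb or more, and median gaps of 17723 and 12605 bp. Merging within 1 kb gave 8.55% and 62.1% of length in such peaks and gaps of 9658 and 3241 bp. The wider 50% of each list gave a length ratio of 1.03 (log2) and shares of 37.8% and 36.4%. Autosomes alone gave ratios of -1.01 and 0.80 (log2), 62.5% of KO length in peaks of 20 kb or more, a control gap of 9308 bp and a distance of new peaks of 11.95 kb. With 50% of a peak under the other list the shares were 35.8% and 21.8%, and the distances of lost and new peaks 97.5 and 6.18 kb. With a reciprocal overlap of 50% the shares were 5.74% and 10.95%.

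Ordering bins by the KO score gave 16.7% control and 87.9% KO coverage in the lowest group and 7.80% control coverage in the highest. Bins of 1 sign in both genotypes gave 23.5% and 84.1% in the lowest group, 10 groups gave 23.2% for control, and leaving out chromosome 19, chosen after seeing the data, gave 22.2% and 81.8%. Among gained bins 279 had a higher score in KO, against 463 with columns divided by their SD and 547 with a gain of 25 points. With a loss of 5 points 2965 lost bins had a higher and 2902 a lower score, against 2042 and 1614. With columns divided by their SD these were 1821 and 1821, so the excess of higher scores over all lost bins was not found there; among lost B bins they were 1000 and 291. The limits of 25 and 5 points also gave 506 lost B bins with a lower score, 1610 and 2396 lost A bins with a higher and a lower one, 1070 other B bins with a lower and 888 other A bins with a higher one. With the replicate block, higher and lower scores numbered 285 and 2908 in gained bins, 2086 and 1677 in lost bins, 987 and 311 in lost B bins and 1099 and 1366 in lost A bins. In other B and A bins they numbered 1953 and 1965, and 1545 and 3639. Without 1 of the Hi-C replicates in turn, a fit that assumes the lone library to vary like the other genotype, they were 188 to 288 and 2414 to 2840 in gained bins, 1669 to 2011 and 1294 to 1607 in lost bins, 915 to 974 and 243 to 303 in lost B bins, and 751 to 1043 and 1051 to 1304 in lost A bins. In other B bins they were 1733 to 1914 and 1632 to 1898, and in other A bins 973 to 1517 and 2711 to 3478. Depth is unknown for the peak lists, so whether a lost peak is absent or under the calling limit cannot be told apart.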

Other observations

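The few H3K9me3 peaks kept in A lay largely on the Polycomb mark. Of 47139 control peaks in A bins, 10.1% (9.88 to 10.4) met a KO peak, against 67.2% (66.8 to 67.6) of 53041 in B. Control H3K27me3 peaks covered 77.3% of the length of the 4784 peaks kept in A and touched 87.0% (86.0 to 87.9) of them. For the 42355 peaks lost in A these shares were 25.3% and 30.8% (30.4 to 31.3), and for the 35664 kept in B 22.8% and 29.1% (28.6 to 29.6). Up to 20 kb wider control peaks in A were kept more often, and the shares of peaks touched were not adjusted for width. In KO, H3K27me3 peaks covered 74.6% of the length of the peaks kept in A. The 3066 new KO peaks in A had 38.3% of their length under H3K27me3 peaks in control and 38.1% in KO, whereas new peaks in B went from 20.3% to 6.58%. Over all A bins H3K27me3 covered 8.84% in control and 9.94% in KO.

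Width and loss were related within A as well. Of control peaks in A under 1 kb, 2.94% (2.604 to 3.32) met a KO peak, against 21.2% (20.1 to 22.2) of those of 5 to 10 kb and 33.3% (30.8 to 35.9) of those of 10 to 20 kb. In B the same classes had 55.4% (54.2 to 56.5), 77.3% (76.3 to 78.2) and 79.7% (77.7 to 81.6). At 20 to 50 kb the share was 35.1% in A (202 peaks) and 70.8% in B (260 peaks). At 50 to 100 kb it was lower, at 16.7% in A (24 peaks) and 39.6% in B (53 peaks). A wider peak has more room to meet another by chance, and that part was not measured. KO peaks of 100 kb or more lay in B in 663 cases and in A in 9. CTCF, the protein found at many TAD boundaries, had peaks touching 11.9% (11.5 to 12.3) of KO peaks with a control peak and 3.17% (2.98 to 3.38) of new KO peaks in control. In KO these shares were 11.1% (10.7 to 11.5) and 3.22% (3.02 to 3.42). Peaks with a control peak are wider than new ones, and these shares were not adjusted for width.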
